A study of Mus musculus with 2 samples.

Results

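The genes described here are 32 components of the NF-kB pathway, chosen by symbol among the 31053 genes listed for each cell of a mouse dendritic cell dataset, and each of the 32 was found in both libraries. By role they were 6 canonical subunits and kinases (Nfkb1, Rel, Rela, Ikbkb, Ikbkg and Map3k8), 8 genes of the noncanonical arm (Nfkb2, Relb, Map3k14, Chuk, Traf2, Traf3, Birc2 and Birc3), 6 inhibitors of the IkB family (Nfkbia, Nfkbib, Nfkbie, Nfkbid, Nfkbiz and Bcl3), 6 genes of ubiquitin-editing feedback (Tnfaip3, Tnip1, Tnip2, Tnip3, Cyld and Otulin) and 6 adaptors, kinases and response genes (Traf1, Ripk1, Ripk2, Cflar, Ikbke and Tnfaip2). The study profiled single conventional dendritic cells (cDC) from the spleen of naive mice of 7 to 9 weeks that carried Il7r-cre together with Rosa26-lsl-tdTomato, in which Cre driven from Il7r switches on tdTomato permanently in a cell and its descendants. After magnetic enrichment for CD11c, tdTomato-positive cells were sorted as L-cDC and tdTomato-negative cells as M-cDC. Both groups carried the same alleles and received no treatment. Each gave 1 library with the droplet method of 10x Genomics, and how many mice went into a library is not given in the sources used here. The comparisons are between resting and mature dendritic cells within each library, and between the libraries within a class of cells. With 1 library a group there is no replicate spread and no test, and the 95% intervals below cover counting error only.

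NF-kB is a family of dimeric transcription factors held in the cytoplasm of resting cells. In the canonical arm, the IkB kinase complex of Ikbkb, Chuk and the scaffold Ikbkg marks IkB proteins for destruction, and dimers of Rela, Rel and the processed product of Nfkb1 enter the nucleus. In the noncanonical arm, the kinase encoded by Map3k14 is destroyed in resting cells by Traf2, Traf3 and the ubiquitin ligases Birc2 and Birc3; when it accumulates, Chuk is activated, the Nfkb2 product is processed and Relb dimers are released. Genes of IkB and ubiquitin-editing proteins are often NF-kB targets that act as feedback, and in dendritic cells the pathway is known for its part in maturation.

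Depth was counted in UMIs, molecular tags that mark single transcripts: 40170515 over 4939 barcodes in L-cDC and 52973960 over 6674 barcodes in M-cDC. The libraries had 6 barcode sequences in common. After removal of poor and doublet-like barcodes, 3943 and 5600 cells remained, and they were clustered without the NF-kB genes. A cluster of 202 L-cDC and 697 M-cDC cells was called cDC1-like, with Xcr1 at 539.5 and 583.5 CPM (UMIs scaled to 1e6 UMIs of the class and library). A cluster of 128 and 974 cells was called cDC2-like, with Sirpa at 213 and 235 CPM; its leading genes included Ifitm6, Ffar2 and Clec4a4, and markers of monocytes summed to 820 and 802 CPM there. Both are called resting here because Ccr7, the chemokine receptor of migrating mature cells, stood at 11.7 to 30.5 CPM in them. An unnamed cluster of 269 and 255 cells, called Cd209a+ Siglech+ after its leading genes, was left out of the classes. Markers of cDC2 summed to 2156 and 1900 CPM there, above 1055 and 1122 CPM in the cDC2-like cluster. Markers of plasmacytoid dendritic cells summed to 1655 and 954 CPM, against 395 and 261. Ratios over cDC2-like cells therefore cover that 1 cluster and not all cDC2. The class called mature Ccr7+ DC-like held 9 clusters with 2948 and 3352 cells, or 74.8% and 59.9% of the libraries, with Ccr7 at 1170 and 1350 CPM. The clusters that held most of it differed: those led by Pla2g7, Mylk and Itgb8 had 596, 595 and 471 cells in L-cDC and 742, 583 and 987 in M-cDC, and a cluster led by Mucl1, Nrp2 and Clu had 349 cells in L-cDC and 2 in M-cDC. The method counts 3′ ends, so levels are compared between cells and not between genes.

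Promoter windows are shown for 5 genes, and no call below rests on them. Nfkb2, Rel, Nfkbia and Tnfaip3 were picked because they hold matches to the kappaB consensus, a letter pattern that describes binding sites of NF-kB dimers. Whether the matched letters are bound was not tested. Birc2 was picked because it had among the largest ratios of mature over resting cells of both kinds. Only 1 window of each is shown, though Nfkb2, Tnfaip3 and Birc2 have more than 1. The windows come from RefSeq on GRCm38.p6, run from 250 bases before a transcript start to 50 after it, and are written 5′ to 3′. Capitals mark matches to the kappaB consensus of 10 letters, searched on both strands.
Nfkb2 (chr19:46304487-46304786, plus strand): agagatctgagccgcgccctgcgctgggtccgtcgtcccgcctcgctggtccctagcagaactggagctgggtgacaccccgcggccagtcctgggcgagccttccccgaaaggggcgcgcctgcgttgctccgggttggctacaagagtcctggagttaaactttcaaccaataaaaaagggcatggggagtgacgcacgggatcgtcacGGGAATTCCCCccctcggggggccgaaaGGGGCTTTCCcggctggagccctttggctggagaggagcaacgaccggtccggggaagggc
Rel (chr11:23770920-23771219, minus strand): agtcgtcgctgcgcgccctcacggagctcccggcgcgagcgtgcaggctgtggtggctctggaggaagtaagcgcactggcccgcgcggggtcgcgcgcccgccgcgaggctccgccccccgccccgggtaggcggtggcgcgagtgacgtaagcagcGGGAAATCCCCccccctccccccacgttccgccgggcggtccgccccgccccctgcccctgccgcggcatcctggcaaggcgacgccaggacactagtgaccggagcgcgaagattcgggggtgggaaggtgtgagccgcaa
Nfkbia (chr12:55492598-55492897, minus strand): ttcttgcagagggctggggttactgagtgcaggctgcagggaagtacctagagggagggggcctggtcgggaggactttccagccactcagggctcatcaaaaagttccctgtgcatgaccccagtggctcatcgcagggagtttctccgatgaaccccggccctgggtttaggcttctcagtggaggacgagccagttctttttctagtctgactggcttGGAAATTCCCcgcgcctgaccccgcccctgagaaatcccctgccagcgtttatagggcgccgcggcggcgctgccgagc
Tnfaip3 (chr10:19015361-19015660, minus strand): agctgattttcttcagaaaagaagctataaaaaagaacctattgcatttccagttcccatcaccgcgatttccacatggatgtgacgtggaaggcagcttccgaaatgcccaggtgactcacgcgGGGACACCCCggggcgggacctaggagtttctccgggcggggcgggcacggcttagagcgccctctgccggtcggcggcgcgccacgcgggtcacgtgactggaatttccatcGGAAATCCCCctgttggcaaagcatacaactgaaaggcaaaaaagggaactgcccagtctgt
Birc2 (chr9:7837008-7837307, minus strand): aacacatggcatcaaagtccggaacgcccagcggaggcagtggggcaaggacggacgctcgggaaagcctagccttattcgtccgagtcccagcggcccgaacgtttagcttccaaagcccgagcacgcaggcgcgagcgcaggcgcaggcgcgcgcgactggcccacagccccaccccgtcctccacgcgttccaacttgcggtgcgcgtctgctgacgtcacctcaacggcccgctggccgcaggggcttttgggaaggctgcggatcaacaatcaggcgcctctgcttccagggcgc
Counted from the start in the windows shown, matches began at -39, -38 and -11 in Nfkb2, at -92 and -91 in Rel, at -29 in Nfkbia and at -125 and -12 in Tnfaip3. Neighbouring positions are 1 stretch read on both strands. Windows were matched for 26 of the 32 genes, and those without an entry were Nfkb1, Relb, Ikbkb, Map3k8, Nfkbiz and Ripk2. At least 1 match was held by 11 of the 26 (42.3%): Nfkb2, Rel, Nfkbia, Nfkbid, Nfkbie, Bcl3, Tnfaip3, Tnip1, Tnip3, Cyld and Traf3. The share was 5.14% over the 27025 genes of the table and 4.51% over its 32851 windows. The windows of Birc2, Birc3, Traf1, Cflar and Map3k14 held no match. A match describes the sequence only.

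Transcripts of most NF-kB genes were higher in mature than in cDC1-like cells, and a smaller set was also higher than in cDC2-like cells. A gene was considered in a comparison with at least 20 CPM in the higher class and 50 UMIs over both classes, in both libraries, and was called higher or lower at 2-fold in the same direction in both libraries. Against cDC1-like cells 29 of the 32 genes were considered; 23 were higher, where 17.9% of all 5162 genes considered were, and 0 were lower, where 18.6% of all genes were. Against cDC2-like cells 29 were considered; 10 were higher (12.3% of all 5336 genes considered) and 1, Nfkb1, was lower (20.3% of all genes). Ikbkg, Ripk2 and Ikbke were not considered in either. The 32 genes were chosen with earlier results of these data known, so the counts are not independent of the data. Over the 29 considered, the median log2 ratio was 1.79 in both libraries against cDC1-like cells, beside -0.07 and -0.11 over all genes, and 0.87 and 0.71 against cDC2-like cells, beside -0.33 and -0.32 over all genes. The 2 comparisons share the mature cells, so a high level there enters both. A gene under 20 CPM in the resting class was considered only through the mature class and could not be called lower. Against cDC1-like cells these were Traf2, Traf3, Nfkbid, Nfkbiz, Bcl3, Tnip2, Tnip3 and Tnfaip2.

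**Figure D1:**
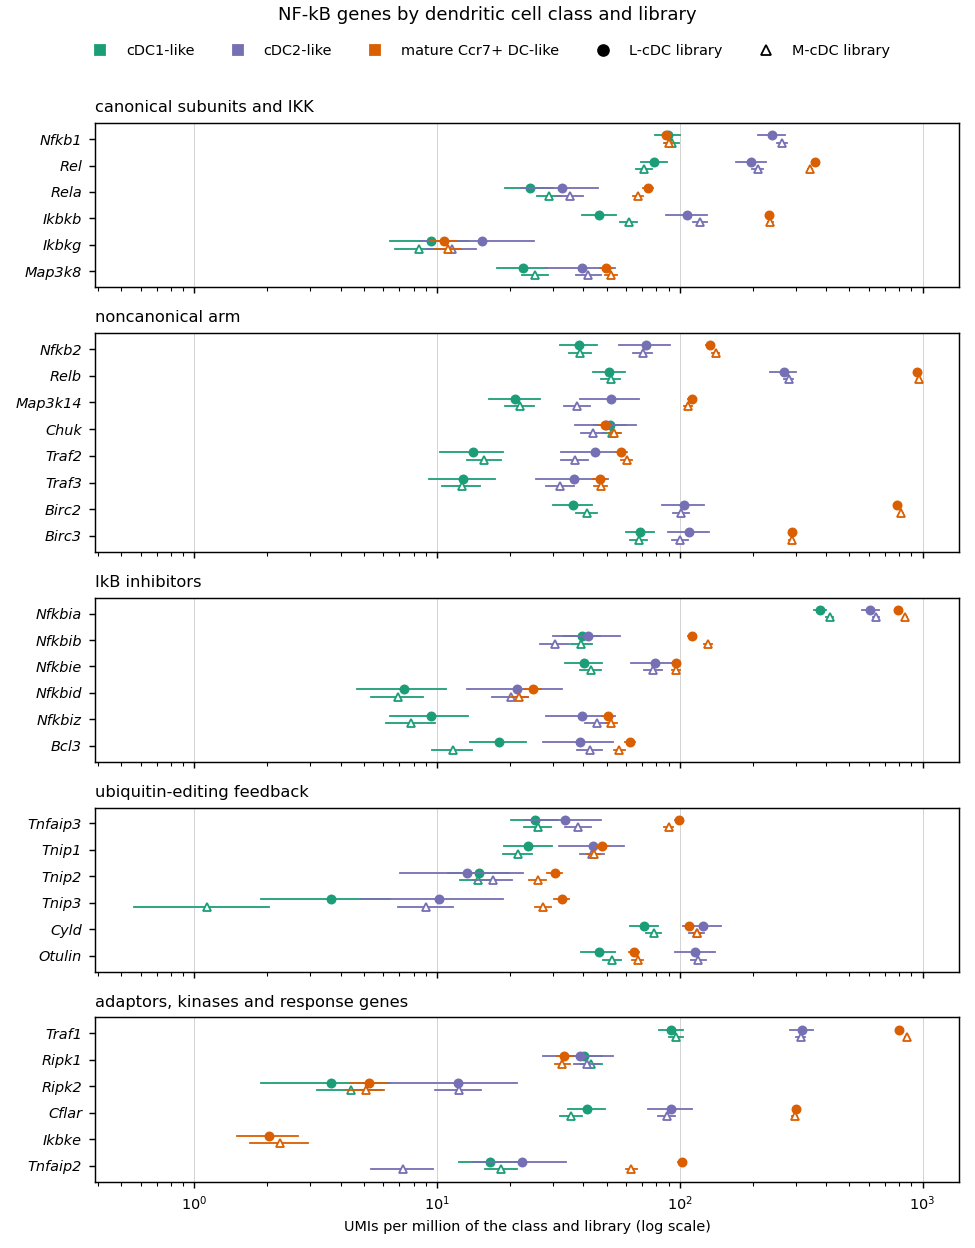
Level of each NF-kB gene (CPM, log scale) in cDC1-like, cDC2-like and mature Ccr7+ DC-like cells, with the L-cDC library as filled circles, the M-cDC library as open triangles and bars for exact Poisson 95% intervals; Ikbke had 0 UMIs in both resting classes and is drawn for mature cells only. Relb, Birc2, Traf1 and Nfkbia lie farthest to the right in mature cells, and Nfkb1 in cDC2-like cells is the clearest case of a resting class above the mature one.

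Among the canonical genes, Rel and Ikbkb were higher in mature than in cDC1-like cells and Nfkb1 was not. Rel, a subunit prominent in dendritic cells and lymphocytes, stood at 78.6 CPM in cDC1-like, 197 in cDC2-like and 360 in mature cells of L-cDC, and at 71.4, 210 and 344 CPM in M-cDC. The classes kept this order in both libraries, and the ratios of mature over cDC1-like cells were 4.58-fold (4.05 to 5.20) and 4.82-fold (4.46 to 5.22). Over cDC2-like cells they were 1.82-fold and 1.64-fold, which did not reach 2-fold. Ikbkb, the main IkB kinase of the canonical arm, stood at 46.6, 107 and 233 CPM in the same order in L-cDC and at 61.5, 121 and 236 CPM in M-cDC. Its ratio over cDC1-like cells was 4.99-fold (4.25 to 5.90) and 3.84-fold (3.53 to 4.18), and over cDC2-like cells it lay at 2.18-fold and 1.95-fold, on either side of the 2-fold line. Rela, the main transactivating subunit, was 3.07-fold and 2.32-fold higher in mature than in cDC1-like cells. Map3k8, a kinase bound to the Nfkb1 precursor, was 2.20-fold and 2.05-fold higher in mature than in cDC1-like cells, and it lost the call in 10 of 23 other settings of the analysis.

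Nfkb1, which encodes a precursor processed to a canonical subunit, went the other way against cDC2-like cells. It stood at 89.3, 239 and 87.7 CPM in cDC1-like, cDC2-like and mature cells of L-cDC, and at 93.0, 263 and 89.9 CPM in M-cDC. Mature and cDC1-like cells thus had nearly the same level, with ratios of 0.98-fold (0.87 to 1.11) and 0.97-fold (0.89 to 1.05). Among the 3 classes, cDC2-like cells stood apart. Their level was 2.72-fold (2.37 to 3.12) and 2.92-fold (2.74 to 3.11) that of mature cells, or a log2 ratio of -1.45 and -1.55 for mature over cDC2-like cells. A high level was not particular to them. The Cd209a+ Siglech+ cluster, outside the classes, had Nfkb1 at 308 and 349 CPM, above cDC2-like cells in both libraries. Ikbkg, the scaffold of the kinase complex, had 8.42 to 15.3 CPM in the 3 classes and was too low to be considered.

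The noncanonical arm held Relb and Birc2, with ratios among the largest. Of its 8 genes 7 were higher in mature than in cDC1-like cells (17.9% of all genes considered were). Against cDC2-like cells 4 were higher (12.3% of all genes). Relb (chr7:19606217-19629438), the subunit released by this arm, stood at 51.2, 268 and 945 CPM in cDC1-like, cDC2-like and mature cells of L-cDC and at 51.9, 281 and 965 CPM in M-cDC. It was 18.5-fold (15.9 to 21.6) and 18.6-fold (17.0 to 20.4) higher in mature than in cDC1-like cells, and 3.53-fold (3.13 to 4.01) and 3.43-fold (3.28 to 3.6) higher than in cDC2-like cells. The cDC2-like level lay between the others in both libraries. Birc2 (chr9:7818227-7837064), a ubiquitin ligase that restrains the Map3k14 product, stood at 36.3, 104 and 787 CPM in L-cDC and at 41.4, 101 and 816 CPM in M-cDC. Its ratios were 21.7-fold (18.1 to 26.2) and 19.7-fold (17.9 to 21.8) over cDC1-like cells and 7.58-fold (6.24 to 9.30) and 8.05-fold (7.46 to 8.70) over cDC2-like cells. For both genes, how much of the cDC1-like level is background cannot be told (given with the shares of cells). If part of it is, the ratios over cDC1-like cells are lower bounds. Birc3, its paralog with the same function, lies 11634 bases from Birc2 on the same strand (chr9:7848699-7873186) and was also higher. It stood at 68.9, 109 and 290 CPM in L-cDC and at 67.6, 100 and 289 CPM in M-cDC, with ratios over cDC2-like cells of 2.66-fold (2.20 to 3.25) and 2.89-fold (2.67 to 3.13).

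Map3k14, the kinase that starts the noncanonical arm, stood at 21, 51.9 and 113 CPM in cDC1-like, cDC2-like and mature cells of L-cDC and at 22.0, 37.9 and 108 CPM in M-cDC. Its ratios over cDC2-like cells were 2.17-fold (1.65 to 2.92) and 2.86-fold (2.51 to 3.26), and the interval in L-cDC reaches below 2-fold. Nfkb2, whose product pairs with Relb, was 3.47-fold (2.90 to 4.18) and 3.62-fold (3.26 to 4.04) higher in mature than in cDC1-like cells but 1.84-fold and 1.99-fold over cDC2-like cells, just short of the call. The adaptors Traf2 and Traf3 were 3.65-fold to 4.09-fold higher in mature than in cDC1-like cells and 1.28-fold to 1.63-fold over cDC2-like cells. Chuk, the kinase on which the arm depends, was not called: its log2 ratios were -0.08 and 0.03 over cDC1-like cells and -0.02 and 0.29 over cDC2-like cells.

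The 6 IkB inhibitors were each called higher in mature than in cDC1-like cells, where 17.9% of all genes considered were. Only Nfkbib was called higher than in cDC2-like cells, where 12.3% of all genes were, so that count is not read as a result. Nfkbia, the prototype inhibitor that is resynthesised after each activation, stood at 378, 609 and 792 CPM in cDC1-like, cDC2-like and mature cells of L-cDC and at 415, 644 and 848 CPM in M-cDC. The order was the same in both libraries, with ratios of 2.10-fold (1.98 to 2.22) and 2.04-fold (1.98 to 2.11) over cDC1-like cells, at the edge of the call, and of 1.30-fold and 1.32-fold over cDC2-like cells. The Nfkbia call was lost in 8 of the 23 other settings. Nfkbib, a second cytoplasmic inhibitor, stood at 39.6, 41.7 and 113 CPM in L-cDC and at 39.3, 30.6 and 131 CPM in M-cDC. The intervals of the resting classes overlapped in L-cDC, while in M-cDC cDC1-like cells (35.5 to 43.5) lay above cDC2-like cells (26.6 to 35.1). Mature cells were 2.70-fold (1.98 to 3.77) and 4.28-fold (3.71 to 4.94) above cDC2-like cells, higher than both resting classes in both libraries. Nfkbiz, Bcl3 and Nfkbid encode nuclear members of the family that can assist transcription, and their levels were lowest in cDC1-like cells. Nfkbiz was 5.33-fold (3.74 to 7.88) and 6.70-fold (5.31 to 8.56) higher in mature than in cDC1-like cells, Bcl3 3.46-fold and 4.86-fold, and Nfkbid 3.39-fold and 3.15-fold. Over cDC2-like cells these 3 genes and Nfkbie had log2 ratios of 0.11 to 0.69.

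**Figure D2:**
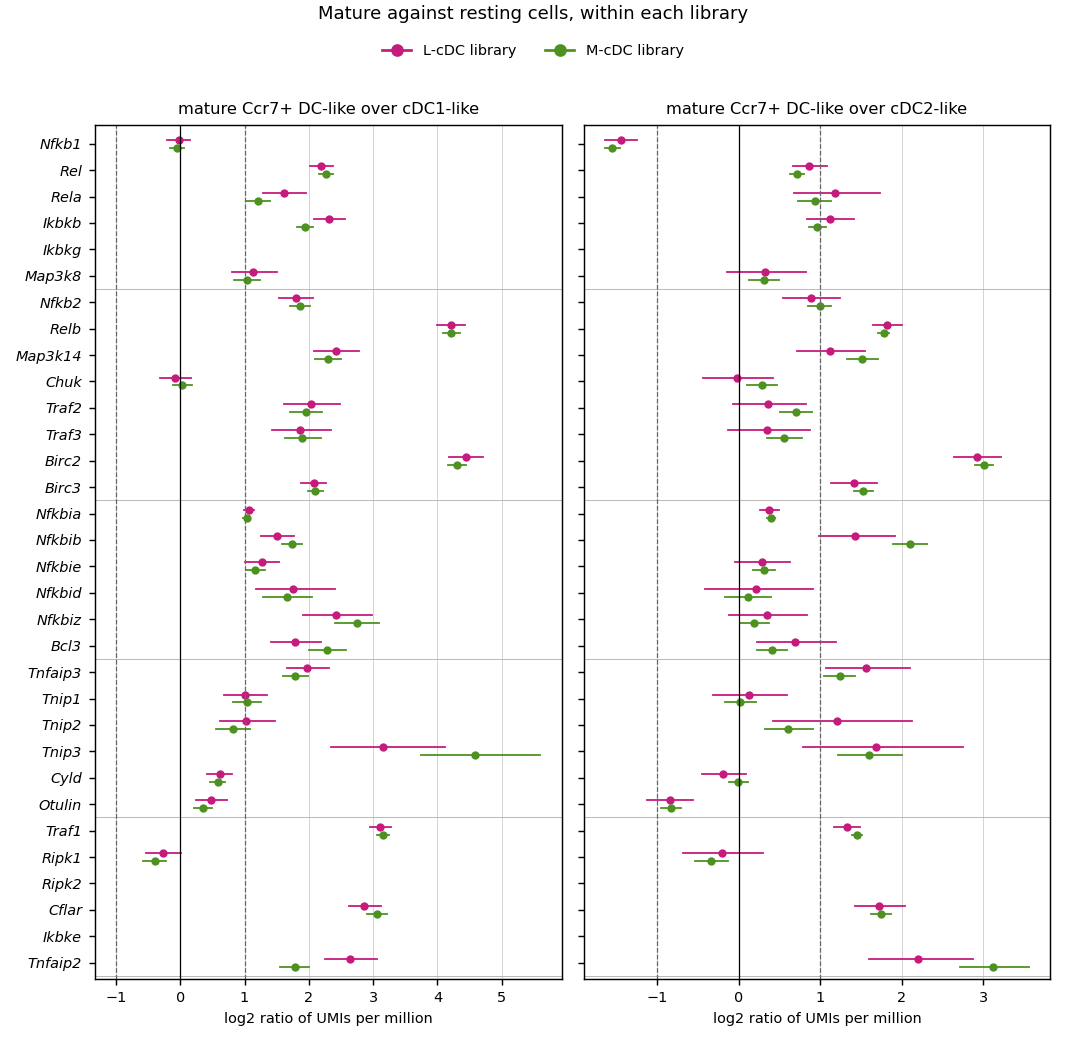
Log2 ratio of mature Ccr7+ DC-like cells over cDC1-like (left) and cDC2-like cells (right) for each NF-kB gene considered, with exact conditional binomial 95% intervals for the L-cDC (magenta) and M-cDC (green) libraries; dashed lines mark 2-fold and horizontal lines part the 5 roles. Both panels use the same mature cells. Relb and Birc2 lie above 4 on the left, and Nfkb1 lies at -1.45 and -1.55 on the right.

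The feedback genes of ubiquitin editing were divided. Tnfaip3, an enzyme that edits ubiquitin chains and dampens the canonical arm, stood at 25.3, 33.6 and 99.4 CPM in cDC1-like, cDC2-like and mature cells of L-cDC and at 26.0, 38.2 and 90.0 CPM in M-cDC. It was higher in mature cells by 3.93-fold (3.16 to 4.95) and 3.46-fold (3.04 to 3.96) over cDC1-like and by 2.96-fold (2.10 to 4.31) and 2.36-fold (2.07 to 2.69) over cDC2-like cells, and the second call was lost in 7 of 23 other settings. Tnip1, a partner of that enzyme, was at the edge of the call over cDC1-like cells, with 2.01-fold and 2.06-fold, and lost it in 13 of 23 other settings. Tnip2, another partner, was 2.04-fold and 1.76-fold over cDC1-like cells and was not called. Cyld and Otulin, which remove ubiquitin chains, were not called in either comparison. Cyld stood at 71.3, 124 and 109 CPM in L-cDC and at 78.3, 117 and 117 CPM in M-cDC. Otulin stood at 46.3, 116 and 64.7 CPM in L-cDC and at 52.5, 119 and 67.0 CPM in M-cDC, so that cDC2-like cells were the highest class for it in both libraries, with log2 ratios of mature over cDC2-like cells of -0.84 and -0.83.

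Tnip3, an inducible member of the same family, depended on which cells counted as cDC2-like. It stood at 3.66, 10.2 and 32.6 CPM in cDC1-like, cDC2-like and mature cells of L-cDC and at 1.13, 9.02 and 27.2 CPM in M-cDC. These resting levels rest on 10 to 61 UMIs a class and library, and in L-cDC 50% of the 10 UMIs of cDC2-like cells came from 1 cell. The ratios of mature over cDC2-like cells were 3.21-fold (1.74 to 6.72) and 3.02-fold (2.32 to 3.99), yet the call was lost in 11 of 23 other settings. The unnamed cluster of 269 L-cDC and 255 M-cDC cells, led by Cd209d, Mgl2 and Cd209a together with Siglech, had Tnip3 at 53.8 and 33.0 CPM, above the mature class. Against the cDC2-like cluster, this Cd209a+ Siglech+ cluster was 5.29-fold and 3.65-fold higher in Tnip3. Of 27 NF-kB genes considered, 1 was called higher (2.22% of all genes considered were) and 0 lower (2.93% of all genes). These counts are near the shares of all genes, so nothing particular to the NF-kB genes is read from them. With these cells counted as cDC2-like, the mean log2 ratio of Tnip3 in mature over cDC2-like cells was 0.17.

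The adaptors and response genes included Traf1 and Cflar, both higher in mature cells against both resting classes. Traf1, an adaptor of TNF receptors, stood at 92.3, 317 and 796 CPM in cDC1-like, cDC2-like and mature cells of L-cDC and at 96.8, 316 and 863 CPM in M-cDC. Mature cells were 8.63-fold (7.70 to 9.70) and 8.91-fold (8.35 to 9.53) above cDC1-like and 2.51-fold (2.24 to 2.82) and 2.73-fold (2.61 to 2.86) above cDC2-like cells, with cDC2-like cells between as for Relb. Cflar, an inhibitor of caspase activation, stood at 41.4, 91.6 and 302 CPM in L-cDC and at 35.7, 88.6 and 297 CPM in M-cDC, and was 3.30-fold (2.68 to 4.11) and 3.36-fold (3.09 to 3.66) higher in mature than in cDC2-like cells. Ripk1, a kinase of TNF receptor signalling, was not called, with log2 ratios of -0.21 to -0.40 over the resting classes. Ripk2, the kinase of NOD receptors, had 12.2 and 12.3 CPM in cDC2-like cells against 5.22 and 5.08 in mature and 3.66 and 4.42 in cDC1-like cells, below the minimum. Ikbke, an IkB kinase relative, had 2.02 and 2.25 CPM in mature cells and 0 UMIs in both resting classes of both libraries. Its reading of 22 UMIs in the 147 NK-like cells of L-cDC, or 14.9 CPM, was above that of mature cells.

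The counts moved little in most other settings. Over 23 of them, which changed filters, clustering, class naming or scaling and leave aside the one with Malat1-poor cells alone as the mature class, 18 to 23 genes were higher in mature than in cDC1-like cells and 8 to 14 higher than in cDC2-like cells, against 23 and 10 as reported. The same 16 genes were called against cDC1-like cells in each of them, and against cDC2-like cells the 7 genes Relb, Birc2, Birc3, Nfkbib, Traf1, Cflar and Tnfaip2 were. Nfkb1 was lower than in cDC2-like cells in each. Centred on the median of all genes, Rel, Rela, Ikbkb and Nfkb2 were also called higher than in cDC2-like cells.

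The differences in Relb and Birc2 were spread over cells and did not come from few of them. With each cell thinned to 3000 UMIs, the share of cells with a Relb UMI was 9.90% and 16.0% in cDC1-like, 46.4% and 48.0% in cDC2-like, and 90.0% and 90.1% in mature cells, in L-cDC and M-cDC. Unthinned, these shares were 48.5%, 44.9%, 73.4%, 68.9%, 96.5% and 97.0%, at median depths of 15960.5, 13984.0, 7642.5, 6793.5, 8077.0 and 6823.5 UMIs a cell. NK-like cells, taken for comparison at a median of 7638 UMIs, were nearly all in L-cDC (147 cells against 1 in M-cDC) and had Relb UMIs in 16.3% of thinned cells. That is no lower than in cDC1-like cells. NK-like cells may express Relb themselves, so how much of either share is background cannot be told. For Birc2 the thinned shares were 9.41% and 11.0%, 22.3% and 26.7%, and 81.7% and 78.9% in the same order, and 14.97% in NK-like cells, again no lower than in cDC1-like cells. For Nfkb1 they were 25.7% and 22.8%, 45.5% and 48.8%, and 21.7% and 22.2%, and 26.5% in NK-like cells. Of these classes, only cDC2-like cells stood above the NK-like share. Thinning left out 275 and 199 mature cells, 16 and 56 cDC2-like cells and 8 cDC1-like cells with fewer UMIs.

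The share of UMIs from Malat1 moved with the class, and its part in these results was not tested. Malat1, a nuclear noncoding RNA, stood at 88244 and 93100 CPM in mature cells against 28659 and 30089 in cDC1-like and 24614 and 22767 in cDC2-like cells. Within the mature class it differed widely between clusters. A Malat1-rich cluster of 193 and 95 cells reached 277648 and 251159 CPM with medians of 1996 and 1943 UMIs a cell, and a pair of Malat1-poor clusters, of 279 and 426 and of 101 and 65 cells, had 1533 to 3605 CPM with medians of 1191 to 1258.5 genes a cell. The settings without Malat1 in the totals, or without either kind of cluster, are among those that gave the ranges above.

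In the Malat1-poor mature cells the NF-kB genes looked unlike the rest of the class. The larger of these clusters shared the leading gene Aldh1a2, an enzyme of retinoic acid synthesis, with the mature cluster led by Itgb8. Of 28 NF-kB genes considered between them, 15 were at least 2-fold lower in the Malat1-poor cells in both libraries, where 29.4% of all 4178 genes considered were, and 0 were higher, where 0.12% of all genes were. Birc2 stood at 90.6 and 105 CPM in the Malat1-poor cells against 627 and 729 in the Itgb8+ Aldh1a2+ cells, and Rel at 85.7 and 87.1 against 269 and 270 CPM. Relb and Nfkbib did not follow: Relb stood at 652 and 660 against 810 and 840 CPM, and Nfkbib at 180 and 200 against 172 and 173 CPM. The low genes therefore included Birc2, Birc3, Cflar, Traf1, Tnfaip3 and Map3k14 of those called above, and not Relb or Nfkbib. Where Malat1-poor cells alone stood for the mature class, 7 of 23 genes considered were higher than in cDC1-like cells (Nfkb2, Relb, Traf2, Birc2, Nfkbib, Traf1 and Cflar), where 11% of all genes were. Against cDC2-like cells 2 of 25 were higher (Relb and Nfkbib), where 10.5% of all genes were, so this count is not read as a result. These clusters were compared after their values had been seen.

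**Figure D3:**
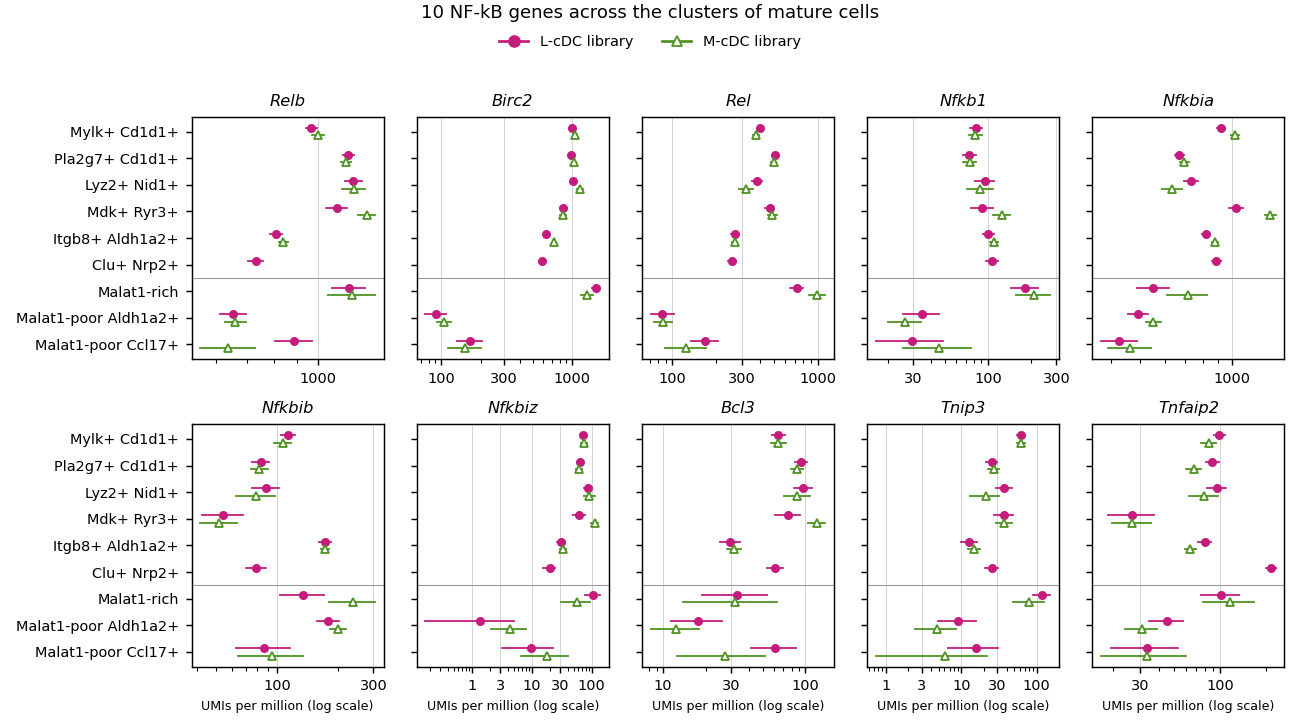
Levels of 10 NF-kB genes (CPM, log scale with its own range for each gene) in the 9 clusters of mature cells, named by leading genes, for the L-cDC (filled circles) and M-cDC (open triangles) libraries with exact Poisson 95% intervals; values at 0 UMIs are not drawn, nor is the Clu+ Nrp2+ cluster for M-cDC, where it had 2 cells. Clusters below the grey line are the Malat1-rich and Malat1-poor ones, where Birc2, Tnip3 and Nfkbiz part most.

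The mature clusters with usual Malat1 differed in a few NF-kB genes and much less in others. Over those of at least 50 cells in a library (6 in L-cDC and 5 in M-cDC), Birc3 spanned 1.17-fold and 1.46-fold from the lowest to the highest, Cflar 1.34-fold and 1.34-fold, and Relb 1.63-fold and 1.52-fold. Nfkbiz spanned 4.42-fold and 3.44-fold, Tnip3 4.79-fold and 4.22-fold, Bcl3 3.25-fold and 3.81-fold, and Nfkbib 3.19-fold and 3.33-fold. In both libraries Nfkbib was highest in the Itgb8+ Aldh1a2+ cluster, at 172 and 173 CPM, and lowest in the cluster led by Mdk and Ryr3, at 54.1 and 51.8 CPM. Bcl3 was lowest in the Itgb8+ Aldh1a2+ cluster, at 29.6 and 31.7 CPM, and Tnip3 was highest in the cluster led by Mylk and Cd1d1, at 61.5 and 62.7 CPM. Nfkbia was highest in the Mdk+ Ryr3+ cluster, at 1031 and 1330 CPM.

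Between the Itgb8+ Aldh1a2+ and the Pla2g7+ Cd1d1+ clusters, the largest pair, 29 NF-kB genes were considered. Nfkbib and Tnip1 were higher in the former (2 genes, with 8.54% of all 4541 genes considered higher) and Bcl3 was lower (1 gene, with 7.38% of all genes lower). Tnip1 stood at 67.9 and 59.7 CPM against 33.5 and 28.9 CPM in the 2 libraries. Rel stood at 269 and 270 against 510 and 499 CPM, 1.90-fold and 1.85-fold lower, and did not reach the call. The shares are near those of all genes, so nothing particular to the NF-kB genes is read from the counts.

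Between the libraries, Tnfaip2 was the only NF-kB gene called, among those considered, within any of the 3 classes. A gene was called here at 1.5-fold. In cDC1-like cells 21 of the 32 genes were considered, 0 were higher in L-cDC (0.36% of all genes considered were) and 0 lower (0.677%). In cDC2-like cells 27 were considered, 1 was higher (3.58% of all genes) and 0 were lower (3.65%), and in mature cells 29 were considered, 1 was higher (0.883%) and 0 lower (0.566%). The count of 1 in cDC2-like cells is near the share of all genes, so nothing particular to the NF-kB genes is read from it. The median log2 ratios of L-cDC over M-cDC were -0.06, 0.01 and -0.01 over the genes considered, beside -0.07, -0.01 and -0.04 over all genes. In mature cells, where counts are largest, Relb was 0.98-fold (0.962 to 0.998), Birc2 0.96-fold (0.95 to 0.98), Rel 1.05-fold (1.01 to 1.08) and Nfkbia 0.93-fold (0.92 to 0.95). In cDC1-like cells the lowest ratio among those considered was Ikbkb, at 0.76-fold (0.63 to 0.91), short of the call. Of the genes with too few UMIs or too low a level to be considered there, Bcl3 was 1.55-fold (1.11 to 2.14) and Tnip3 3.24-fold (1.31 to 8.09) higher in L-cDC, on 12 and 11 UMIs for Tnip3.

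**Figure D4:**
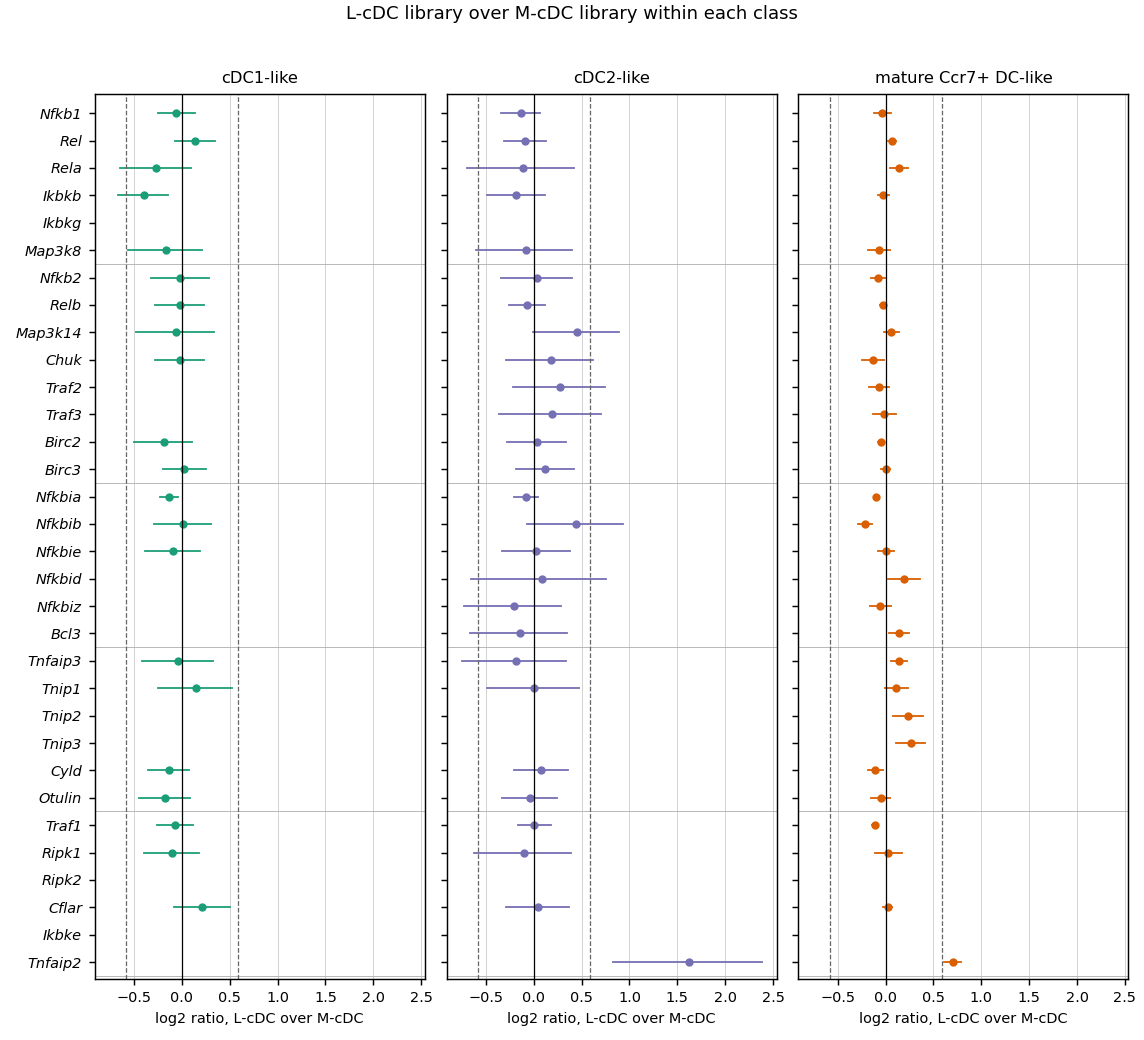
Log2 ratio of the L-cDC over the M-cDC library for each NF-kB gene considered in cDC1-like, cDC2-like and mature Ccr7+ DC-like cells, with exact conditional binomial 95% intervals and dashed lines at 1.5-fold. Tnfaip2 is the only point beyond the dashed lines, at 1.63 in cDC2-like and 0.70 in mature cells.

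Tnfaip2, a TNF-induced gene linked to membrane protrusions, stood at 16.5 CPM in cDC1-like, 22.4 in cDC2-like and 102 in mature cells of L-cDC, and at 18.4, 7.25 and 63.1 CPM in M-cDC. It was higher in mature than in cDC2-like cells in both libraries, by 4.58-fold (3.02 to 7.32) and 8.70-fold (6.55 to 11.8). Between the libraries it was 1.62-fold (1.52 to 1.73) higher in L-cDC in mature cells and 3.09-fold (1.78 to 5.20) in cDC2-like cells, and 0.89-fold (0.65 to 1.22) in cDC1-like cells, where it was not considered. The call in cDC2-like cells was lost in 5 of 23 other settings. The log2 ratio was 0.80 in place of 1.63 both with each library clustered alone and with the Cd209a+ Siglech+ cluster counted as cDC2-like. The Clu+ Nrp2+ cluster, nearly absent from M-cDC, had Tnfaip2 at 216 CPM, and without it the log2 ratio in mature cells was 0.37 in place of 0.70 and was not called; with the clusters found in both libraries weighted equally it was 0.18. The part of the clusters' shares in the difference was not tested. Within the 8 mature clusters found in both libraries the Tnfaip2 ratio ran from 0.87-fold (0.54 to 1.43) in the Malat1-rich cluster to 1.46-fold (1.02 to 2.08) in the Malat1-poor Aldh1a2+ cluster. It was 1.18-fold (1.03 to 1.35) in the Mylk+ Cd1d1+, 1.32-fold (1.15 to 1.53) in the Pla2g7+ Cd1d1+, 1.25-fold (1.10 to 1.42) in the Itgb8+ Aldh1a2+ and 1.21-fold (0.93 to 1.59) in the Lyz2+ Nid1+ cluster. In the Mdk+ Ryr3+ cluster it was 0.997-fold (0.63 to 1.57) and in the Malat1-poor Ccl17+ cluster 0.99-fold (0.44 to 2.34). The 8 clusters are parts of the same libraries and the intervals cover counting error only, so these ratios are not repeated observations of the difference.

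The Tnfaip2 difference in cDC2-like cells rested on 22 UMIs in L-cDC and 49 in M-cDC, and in L-cDC 50% of them came from 1 cell. The share of thinned cells with a Tnfaip2 UMI was 3.57% (exact binomial interval 0.98 to 8.89) in L-cDC and 0.98% (0.45 to 1.85) in M-cDC, beside 2.72% (0.75 to 6.82) in NK-like cells; unthinned, it was 7.03%, 2.67% and 5.44%. The NK-like cells were in L-cDC, 147 against 1 in M-cDC. The cDC2-like share in L-cDC is not above theirs beyond the intervals. NK-like cells may express Tnfaip2 themselves, so how much of either share is background cannot be told. If part of the cDC2-like level is background, the 4.58-fold ratio of mature over cDC2-like cells is a lower bound. For M-cDC no such comparison can be made. Markers of mature cells summed to 1508 CPM in cDC2-like cells of L-cDC and 1080 in M-cDC, and 7 of the 14 considered there were at least 1.5-fold higher in L-cDC and 1 lower; their part in the result was not tested. Macrophage-like cells had Tnfaip2 at 144 CPM in M-cDC, on only 25 cells with 117921 UMIs over all genes. Their level in L-cDC is not given here. Macrophage markers summed to 84.4 and 98.1 CPM in cDC2-like cells of L-cDC and M-cDC.

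The other genes of the pathway were read from lists chosen for their function, with earlier results of these data known. Over all genes considered in this comparison, 12.3% were higher and 20.3% lower in mature than in cDC2-like cells, and a list's count near these shares is not read as a result about the list. Of 12 receptors of the TNF family 8 were considered, and 6 were higher and 1 lower in mature than in cDC2-like cells. Tnfrsf4, a costimulatory receptor, had log2 ratios of 5.87 and 6.51 in L-cDC and M-cDC, Tnfrsf9 5.51 and 4.90, and Fas, the death receptor, 4.04 and 4.87. The lower one was Tnfrsf1a. Of 12 ligands only Ltb was considered in both libraries. Ltb, which encodes a ligand of the receptor that engages the noncanonical arm, stood at 1440 and 1116 CPM in cDC2-like against 87.4 and 106 in mature cells, with log2 ratios of -4.04 and -3.40. Of 14 adaptors of Toll-like and IL-1 receptors 7 were considered; Traf6 was higher, with 1.12 and 1.60, and Myd88 and Ticam2 were lower, with -1.79 and -1.72 and with -1.52 and -1.73. Of 18 genes of the linear ubiquitin complex, related adaptors and ligases 15 were considered; Tank and Traf5 were higher, with 1.53 and 1.46 and with 1.17 and 1.31. Of 27 response genes 21 were considered, and 12 were higher and 2 lower. Ccl22, a chemokine, had log2 ratios of 5.36 and 6.11, Il15 4.64 and 4.90, and Gadd45b, a stress gene, 4.18 and 5.0; the lower ones were Cd80 and Plek.

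Immediate early genes, which can be set off by tissue handling, were listed apart. Of 24 immediate early and heat shock genes 21 were considered, 4 were higher and 7 lower in mature than in cDC2-like cells (12.3% and 20.3% of all genes considered were). Egr1, Fos and Ier2, all induced within minutes of a stimulus, had log2 ratios of -5.35 and -4.99, -2.95 and -3.07, and -2.86 and -3.01. The summed list stood at 4981 and 5593 CPM in mature, 5314 and 5968 in cDC2-like and 5565 and 6057 in cDC1-like cells. Its part in the results for NF-kB genes was not tested.

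Set beside the promoter windows shown at the start, of the 23 genes higher in mature than in cDC1-like cells 19 had a window and 10 of these held a kappaB match, and of the other 9 genes 7 had a window and 1 (Cyld) held a match. Of the 10 genes higher than in cDC2-like cells 9 had a window and 2 (Tnfaip3 and Tnip3) held a match, and of the other 22 genes 17 had a window and 9 did. These are descriptions of short windows, and genes were chosen as members of this pathway.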

How the data were processed

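The members and the gene lists were chosen with earlier results of these data known. The authors deposited UMI counts per gene and cell barcode, made with Cell Ranger 6.1.2 per the file headers and aligned to GRCm38 (mm10) per the submitters' processing notes. Barcodes with at least 500 genes and at most 10% mitochondrial UMIs were kept. Scrublet set its threshold at 0.635 in L-cDC, which marked 3 cells, and at 0.258 in M-cDC, so the lower one was applied to both, a choice made after seeing this, and it removed 143 and 248 cells. Cells were clustered together with scanpy 1.11.5 (2000 variable genes without the NF-kB and pathway genes, 30 components, 15 neighbours, Leiden resolution 1.0, seed 1). Clusters were named from marker lists with a rule changed once the data had been seen, because the first version left most mature clusters without a name. Counts were summed per class and library and given as CPM with exact Poisson intervals; ratios have exact conditional binomial intervals, which cover counting error only. Each library is 1 sample, so no test was made. Genes named were the members and, in each pathway list, up to 3 considered genes with the largest absolute log2 ratio of mature over cDC2-like cells; Tnfrsf1a, Cd80 and Plek were named after their values were seen. A fold against 0 UMIs is not given. Alternatives were filters, doublets, clustering, class naming, scaling, thinning and minimum levels. The scripts were tested on simulated data. Python 3.11.15, numpy 2.4.6, scipy 1.17.1 and pandas 2.3.3 were used. Gene positions are from GENCODE M21 and promoter windows from RefSeq. A result in 1 pathway list is not reported here.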

Additional observations from a re-analysis of the deposited data

How the results depend on the processing

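With Malat1-poor cells alone as the mature class, 7 of 23 genes considered were higher and 2 lower than in cDC1-like cells (11% and 35.6% of all genes), and 2 of 25 higher and 4 lower than in cDC2-like cells (10.5% and 35.6%). The mean log2 ratios that changed sign there were, over cDC1-like cells, Map3k8 -1.26, Nfkbid -0.59 and Nfkbiz -0.86, and over cDC2-like cells Map3k14 -0.11, Birc3 -0.13, Tnfaip3 -0.046, Tnip3 -0.38 and Cflar -0.10. The Tnip3 ratio over cDC2-like cells also changed sign with a minimum of 200 genes a cell (-0.58), at most 5% mitochondrial UMIs (-0.38), doublet-like cells kept (-0.37), Leiden resolution 2.0 (-0.46) or 0.5 (-0.29), NF-kB genes allowed in clustering (-0.40) and each library clustered alone (-0.51). With a minimum of 5 CPM, 2 genes were lower than in cDC2-like cells, Ripk2 being added. For L-cDC over M-cDC in cDC1-like cells, 1 gene was higher at 5% mitochondrial UMIs, with NF-kB genes in clustering, without mitochondrial, ribosomal and immunoglobulin genes in the totals and at 5 CPM, 3 were with cells classed by marker means, and 2 were lower after thinning. In cDC2-like cells, 2 were higher at 200 genes, at 5% mitochondrial UMIs, with doublet-like cells, at both other resolutions, with NF-kB genes in clustering and by marker means, 3 of 27 with each library alone (12.6% of all genes), Tnfaip2 not among them, and 0 after thinning or at 50 CPM; 5 of 27 were lower with each library alone (16.1% of all genes) and 1 with cells weighted equally (5.57%). In mature cells, 0 were higher without the cluster of nearly 1 library or with clusters weighted equally. The causes were not tested. The settings on Malat1, on the cluster of nearly 1 library, on equal weights for clusters and on the Cd209a+ Siglech+ cluster were chosen after seeing the data. No paired analysis was possible because each group is 1 library. The cDC2-like class of L-cDC had 128 cells, which limits the precision of its values.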
